A study of Mus musculus with 8 samples.

Results

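The apoptosis regulators described here were 9 genes chosen by name: Bcl2, Bcl2l1, Bcl2l2 and Mcl1, whose proteins protect mitochondria, Bax, Bak1 and Bok, whose proteins act at the mitochondrial membrane to start cell death, Bcl2l11, which encodes the trigger protein BIM, and Trp53, which encodes the transcription factor p53. A probe set, the group of oligonucleotides on an Affymetrix array that reads 1 transcript region, was counted as a member when its annotated symbol was one of these genes. This gave 35 of the 45101 probe sets, and each of the 9 genes had at least 1. Whole testis RNA of mice at postnatal day 23 had been hybridised to Mouse430_2 arrays, each sample to its own. By the labels, 5 samples were wildtype (replicates 1, 2, 4, 6 and 7) and 3 were mutant for Ctcfl (replicates 3, 5 and 8). Ctcfl encodes a testis paralog of the zinc finger protein CTCF that is made in late spermatogonia and preleptotene spermatocytes.

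In the study's text the mutants are homozygous for the Ctcfl del allele, made by crossing to mice with a Cre transgene under a chicken actin promoter. The deletion runs from the first to the eighth exon of Ctcfl, and the del allele carries GFP sequence. The study describes the controls as heterozygous littermates with 1 del allele, whereas the labels call them wildtype, and the label is used throughout. All mice were kept on a C57/Bl6 background. The labels were not checked against the targeted gene, since Ctcfl itself was not analysed here. Nothing in the labels says whether each sample came from its own animal, so the p-values measure the spread between these samples.

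Germ cells die in large numbers during normal spermatogenesis, and the balance within the BCL-2 family decides much of this loss. The protective members BCL-2, BCL-XL (Bcl2l1), BCL-W (Bcl2l2) and MCL-1 hold BAX and BAK in check. BH3-only proteins such as BIM bind the protective members, after which BAX and BAK open the outer mitochondrial membrane, cytochrome c leaves and caspases are switched on. In mice, loss of Bax or of Bcl2l2 leads to male sterility, and p53 can raise transcription of Bax and of several BH3-only genes. Day 23 was chosen in the study as an age before germ cell loss begins in the mutant testis, so the question was whether transcripts of the cell death machinery already differed.

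Testis transcripts dominated every array. The 9 measured genes of the spermatocyte list had mean log2 levels between 11.43 and 11.71. In spermatid and fat transcripts, 2 arrays differed from the remaining 6, namely wildtype replicate 7 and mutant replicate 8. The spermatid list, 10 of 10 genes measured, had a mean log2 level of 11.39 and 10.93 on these arrays and between 8.71 and 9.51 on the others. The fat list, 7 of 8 genes measured, had 7.35 and 7.20 against 5.19 to 6.01. Adipoq, Cfd, Fabp4 and Car3 lay above the range of the other 6 on both arrays, as did Cidec at a low level. Pparg and Lep lay within that range. For Gapdh, whose 3' and 5' probe sets report on RNA quality, the 3' level exceeded the 5' level by 0.31 and 0.33 against 0.041 to 0.22. For beta-actin the same measure was 1.13 and 1.03 against 0.75 to 1.03, so that mutant replicate 8 lay within the range of the others. Nor were the other 6 arrays alike. Mutant replicates 3 and 5 had fat list means of 5.19 and 5.23, against 5.49 to 6.01 in wildtype replicates 1, 2, 4 and 6. For Gapdh they had 0.051 and 0.041 against 0.11 to 0.22. In the spermatid list and beta-actin the genotypes overlapped within the 6 arrays. The part of these values in differences over the 6 arrays was not tested. No label names a batch. Differences of the main probe sets of the members are given with and without wildtype replicate 7 and mutant replicate 8. Those of named pathway genes are also given without them where this turned the sign or moved the value by over 1.5 times.

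None of the 35 probe sets passed an adjusted p of 0.05 in the comparison of mutant with wildtype testis by limma, where 0 of 45101 probe sets (0%) passed and no adjusted p was below 0.99996. With wildtype replicate 7 and mutant replicate 8 fitted as a block, again no member passed, against 0.00222% of all probe sets. At an unadjusted p under 0.05 there was 1 of 35, a probe set of Trp53 that was higher in mutant testis. That is 2.86% of the members, near the 3.47% of all probe sets past the same threshold (1.76% higher and 1.70% lower), and with the block the count was 2, against 5.86% of all. The same probe set was the only member with separate wildtype and mutant ranges, against 2.70% of all probe sets (1.38% higher and 1.31% lower). Of the 35 differences 19 were above 0, or 54.3% against 51.5% of all probe sets, and 16 were below, with a median of 0.0016 on the log2 scale, while the median over all probe sets was 0.0032. The mean level of 17 of the 35 lay above the median level of all probe sets, which by construction divides them at 50.0%.

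**Figure D1:**
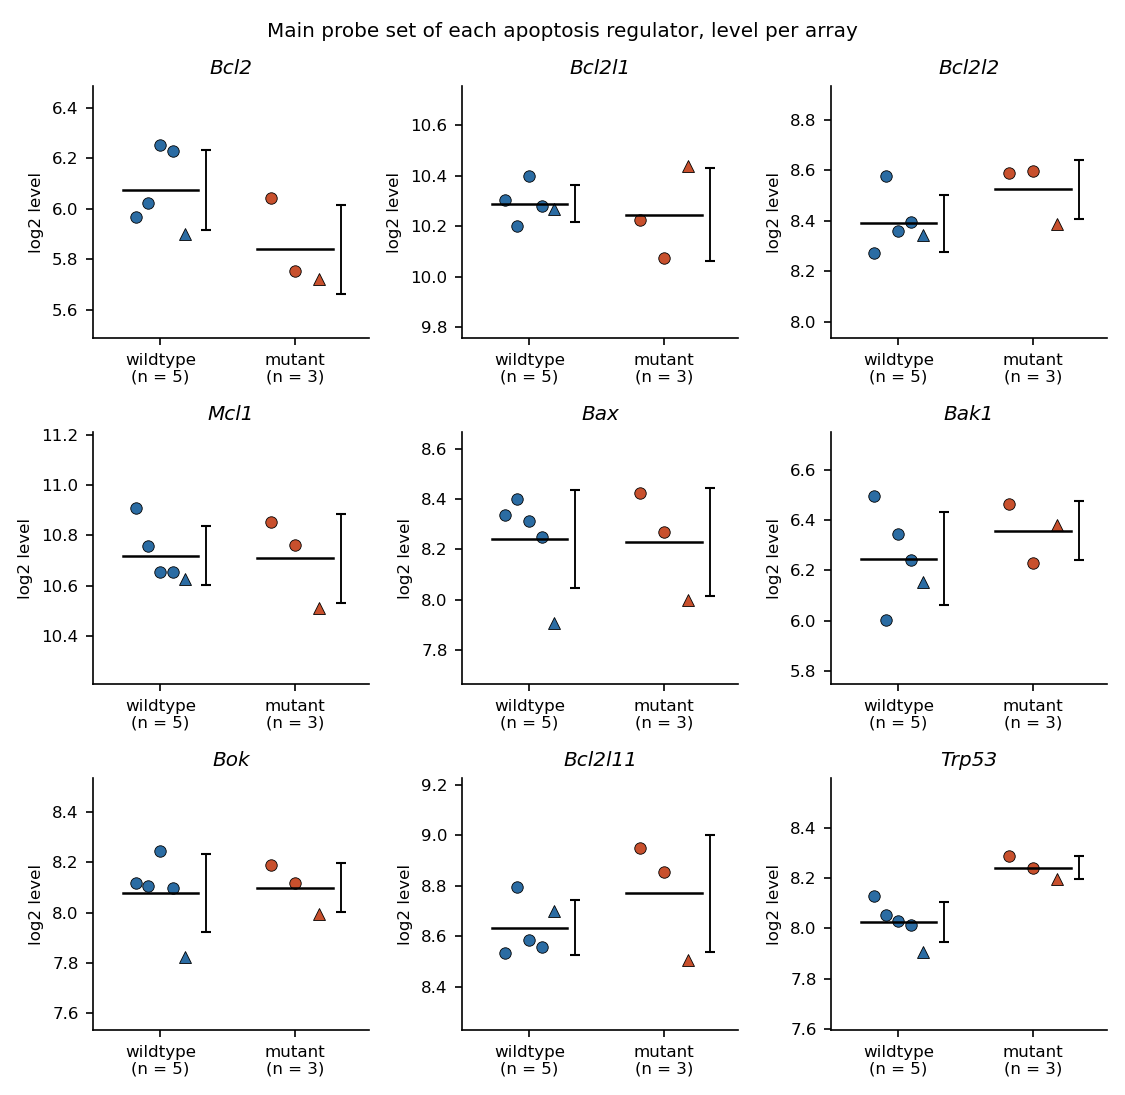
Log2 level (vertical axis, each panel spanning 1 log2 unit) of the main probe set of each gene in the 5 wildtype (blue) and 3 mutant (red) arrays. Horizontal lines are group means, bars are 1 SD, and triangles mark wildtype replicate 7 and mutant replicate 8. The mutant values lie above all wildtype values for Trp53, and the groups overlap for the other 8 genes.

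Trp53 was the member with the lowest p. Its main probe set (1427739_a_at) had log2 levels of 8.13, 8.05, 8.03, 8.01 and 7.91 in wildtype replicates 1, 2, 4, 6 and 7, and of 8.29, 8.24 and 8.19 in mutant replicates 3, 5 and 8. All 3 mutant arrays lay above all 5 wildtype arrays. The means were 8.03 ± 0.08 (SD, n = 5) and 8.24 ± 0.05 (SD, n = 3), a difference of 0.21 on the log2 scale (SE 0.07) with a 95% interval of 0.06 to 0.37, or 1.04- to 1.29-fold. The exact two-sided permutation test gave p = 0.0357, the smallest that 5 against 3 arrays allow. With limma the unadjusted p was 0.0107, which ranked 229 of 45101, and the adjusted p was 0.99996, so the difference failed the correction. Without wildtype replicate 7 and mutant replicate 8 the difference was 0.21, and between mutant replicate 8 and wildtype replicate 7 it was 0.29, from 1 array each. The difference was therefore of like size with and without the arrays that stood apart.

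The second well measured probe set of Trp53 (1426538_a_at) lay at 7.58, 7.18, 7.33, 7.47 and 7.11 in the wildtype arrays and at 7.59, 7.57 and 7.39 in the mutant arrays, in the same order of replicates. Here the groups overlapped, since wildtype replicate 1 was as high as the mutant arrays and replicate 6 lay above mutant replicate 8. The difference was 0.18 (SE 0.11) with an unadjusted limma p of 0.137. With wildtype replicate 7 and mutant replicate 8 as a block it was 0.21, at an unadjusted p of 0.0442 and an adjusted p of 0.849. The other 5 Trp53 probe sets lay between 3.22 and 4.94 on all arrays, below the median of all probe sets (6.43), and differed by -0.07 to 0.13. Mouse carries a Trp53 pseudogene (Trp53-ps in the RefSeq gene table), and cross-hybridisation with it was not tested.

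Markers of other testis cells were set beside Trp53. The mean level of the spermatogonia list, 9 of 10 genes measured, was 8.61 and 8.59 in mutant replicates 3 and 5, above the wildtype range of 8.35 to 8.47, and 8.38 in mutant replicate 8. The Sertoli list lay between 8.17 and 8.24 in wildtype and between 8.16 and 8.39 in mutant testis, and the Leydig list between 8.50 and 8.78 and between 8.55 and 9.08. Single markers differed by as much as Trp53. Among the spermatogonia markers Gfra1, at 4.87 to 5.51 and so below the median level, differed by 0.35 (SE 0.10). Uchl1 differed by 0.26 (SE 0.08), and both had overlapping values. Ddx4 differed by -0.19 (SE 0.07) with all mutant values below all wildtype values. The spermatocyte marker Sycp1 differed by -0.25 (SE 0.08), also without overlap, the Sertoli marker Fshr by 0.18 (SE 0.08) and the Leydig marker Star by 0.50 (SE 0.19). These were the markers of any list with an unadjusted limma p under 0.05, where 3.47% of all probe sets passed. They were 2 higher and 1 lower of 9 spermatogonia markers, 1 of 9 spermatocyte, 1 of 9 Sertoli and 1 of 7 Leydig markers. None of them passed the adjusted threshold, and their part in the Trp53 difference was not tested. In whole testis RNA a change in the number of cells of a type and a change in RNA per cell cannot be told apart.

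The p53 circuit outside the members was read beside Trp53. It held 13 measured genes that are relatives of p53, act on it or are known targets. Of their differences 6 were above 0 and 7 below, with a median of -0.0039. The adjusted threshold was passed by 0, and at an unadjusted p under 0.05 there were 0 higher and 1 lower. The one was Perp, a membrane protein gene and p53 target, with a difference of -0.25 (SE 0.10) and an exact two-sided permutation p of 0.0714, on values that overlapped. It is named here after its value was seen. Mdm2, the ubiquitin ligase that removes p53, differed by 0.03 (SE 0.06), and Cdkn1a, the p53 target that halts the cell cycle, by -0.0039 (SE 0.10), or 0.09 in the 6 arrays. Ppp1r13b, which encodes the p53 cofactor ASPP1, differed by 0.06 (SE 0.07). Ccng1, a p53 target, had 0.22 (SE 0.17), the highest of the group, and it and Cdkn1a were likewise named after their values were seen.

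**Figure D2:**
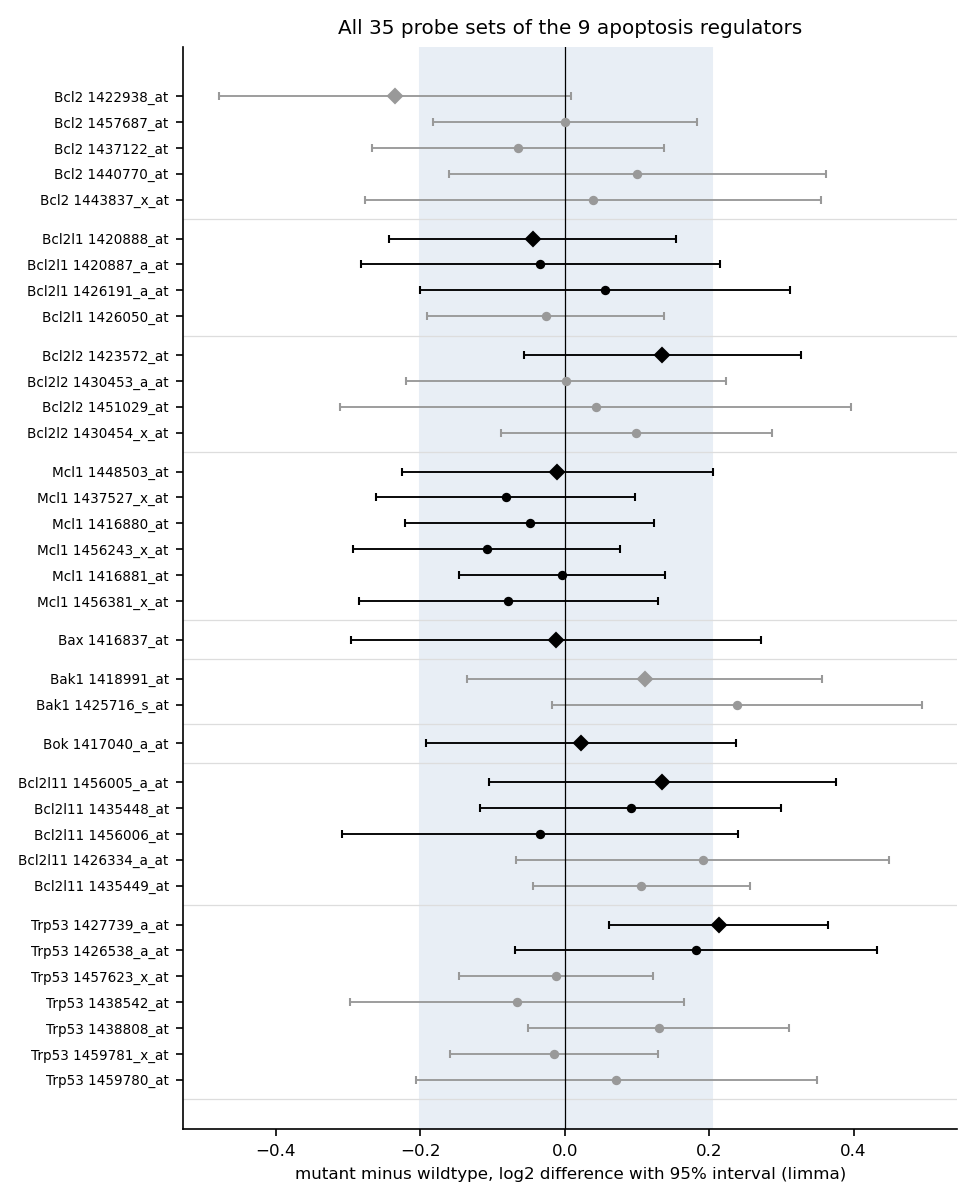
Difference in log2 level, mutant minus wildtype (horizontal axis), with its 95% limma interval for all 35 probe sets. Diamonds mark the main probe set of a gene, grey marks probe sets below the median level, and the shaded band holds the central 95% of all 45101 probe sets (-0.20 to 0.20). The interval leaves out 0 for 1 probe set, that of Trp53.

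Among the protective genes the Bcl2 probe sets were low. The main one (1422938_at) lay at 5.97, 6.02, 6.25, 6.23 and 5.90 in wildtype replicates 1, 2, 4, 6 and 7 and at 6.04, 5.75 and 5.72 in mutant replicates 3, 5 and 8. Mutant replicates 5 and 8 were below every wildtype array, whereas mutant replicate 3 lay within the wildtype range. The difference was -0.24 (SE 0.11), with a 95% interval of -0.48 to 0.01, an unadjusted limma p of 0.0571 and an exact two-sided permutation p of 0.143. Without wildtype replicate 7 and mutant replicate 8 it was -0.22. The other 4 Bcl2 probe sets differed by -0.06, 0.00032, 0.04 and 0.10, and the gene is therefore left without a direction. All 5 lay below the median level of all probe sets.

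Bcl2l1, which encodes BCL-XL, was represented by 4 probe sets. The main one (1420888_at) had 10.30, 10.20, 10.40, 10.28 and 10.27 in the wildtype and 10.22, 10.07 and 10.44 in the mutant arrays. The mutant arrays included both the lowest and the highest of the 8 values. The difference was -0.04 (SE 0.09), with a 95% interval of 0.845- to 1.11-fold. It was -0.15 without wildtype replicate 7 and mutant replicate 8 and 0.17 between those 2 arrays. The other 3 probe sets differed by -0.03, -0.03 and 0.06.

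Bcl2l2, which encodes BCL-W, had a main probe set (1423572_at) at 8.27, 8.58, 8.36, 8.40 and 8.34 in wildtype and at 8.59, 8.60 and 8.39 in mutant testis. Mutant replicates 3 and 5 were just above wildtype replicate 2, and mutant replicate 8 lay among the wildtype arrays. The difference was 0.14 (SE 0.09), with an exact two-sided permutation p of 0.107 and an adjusted limma p of 0.99996, and it was 0.19 in the 6 arrays. All 4 of its probe sets were above 0, from 0.0016 to 0.14, but 3 of them lay below the median level.

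Mcl1 was well measured by 6 probe sets, all above the median level. The main one (1448503_at) lay at 10.91, 10.76, 10.65, 10.65 and 10.63 in wildtype and at 10.85, 10.76 and 10.51 in mutant testis. The groups overlapped almost entirely, with a difference of -0.01 (SE 0.10), and of 0.06 in the 6 arrays. The remaining probe sets had differences from -0.11 to -0.0037 with SE of at most 0.093, so all 6 were below 0 over the 8 arrays. In the 6 arrays the remaining probe sets had -0.04 to 0.03. Between mutant replicate 8 and wildtype replicate 7 they had -0.31 to -0.09. The exact two-sided permutation p over the 8 arrays was 0.25 or higher for each Mcl1 probe set. For Mcl1 the 95% intervals of the 6 probe sets spanned -0.29 to 0.21 at their widest.

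The effector genes Bax and Bok each had 1 probe set. Bax (1416837_at) lay at 8.34, 8.40, 8.31, 8.25 and 7.91 in wildtype and at 8.42, 8.27 and 8.0 in mutant testis. The 2 lowest values were those of wildtype replicate 7 and mutant replicate 8, and the remaining wildtype and mutant arrays overlapped. The difference was -0.01 (SE 0.13), with a 95% interval of 0.814- to 1.21-fold, and without those arrays it was 0.02. Bok (1417040_a_at), a BAX relative, lay at 8.12, 8.10, 8.24, 8.10 and 7.82 in wildtype and at 8.19, 8.12 and 7.99 in mutant testis. The same 2 arrays were lowest, and the difference was 0.02 (SE 0.10) over all arrays and 0.01 in the other 6.

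Bak1, the partner of Bax, was low. Its main probe set (1418991_at) had 6.49, 6.004, 6.34, 6.24 and 6.15 in wildtype and 6.46, 6.23 and 6.38 in mutant testis. All mutant values lay inside the wildtype range, with a difference of 0.11 (SE 0.11), and of 0.08 in the 6 arrays. Its other probe set (1425716_s_at), at 4.66 to 5.27 over all arrays, differed by 0.24 (SE 0.11) with an unadjusted limma p of 0.0647, and within wildtype replicate 7 and mutant replicate 8 alone by 0.54.

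Bcl2l11, the gene of BIM, moved more than the main probe set of any other member when the arrays that stood apart were left out. Its main probe set (1456005_a_at) lay at 8.53, 8.80, 8.59, 8.56 and 8.70 in wildtype and at 8.95, 8.85 and 8.51 in mutant testis. Mutant replicates 3 and 5 were above all wildtype arrays, and mutant replicate 8 was below all of them. Over the 8 arrays the difference was 0.14 (SE 0.11), with an exact two-sided permutation p of 0.321. Without wildtype replicate 7 and mutant replicate 8 it was 0.28, at an unadjusted limma p of 0.0155 and an adjusted p of 0.751. Between those 2 arrays alone it was -0.19. Leaving out mutant replicate 8 alone gave 0.27, and wildtype replicate 7 lay within the range of the other wildtype arrays. A second well measured probe set (1435448_at) behaved alike, with 0.09 over the 8 arrays, 0.20 in the 6 and -0.17 between the 2. The last one above the median level (1456006_at) had -0.03, 0.15 and -0.45 in the same order. The spermatid and fat levels given above were higher on both wildtype replicate 7 and mutant replicate 8, and their part was not tested.

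**Figure D3:**
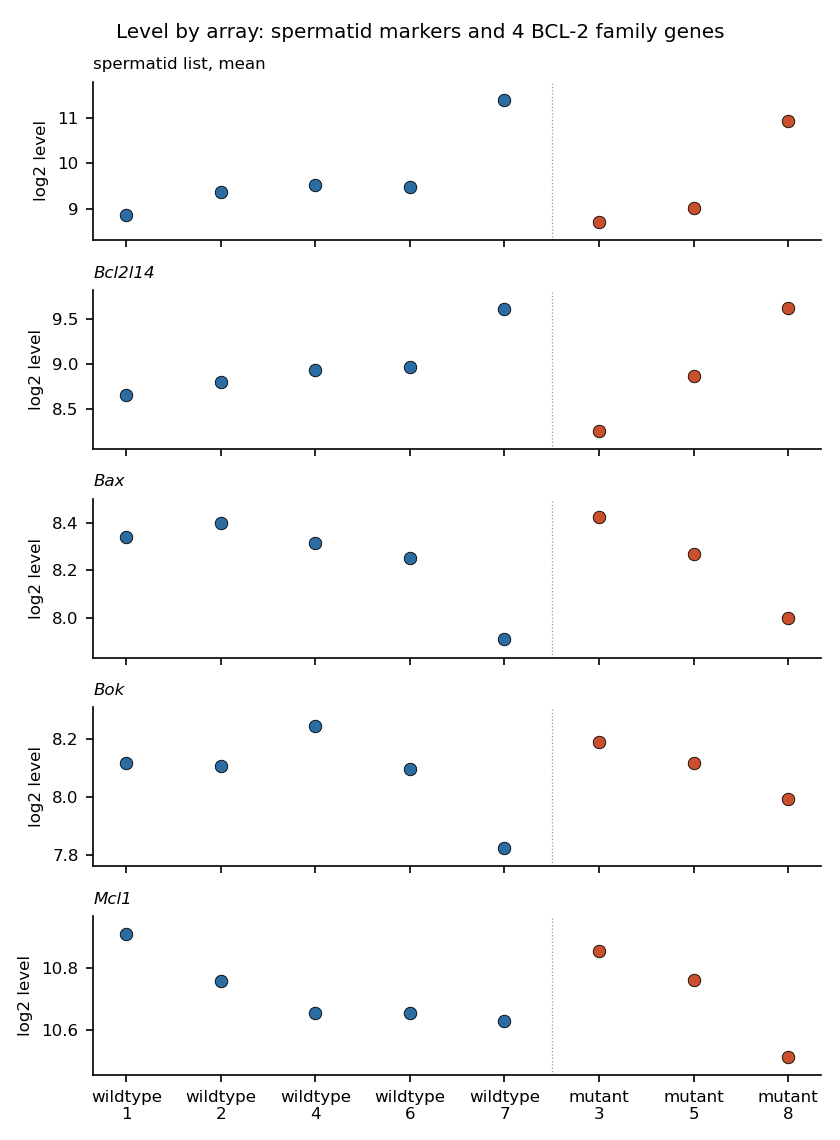
Mean log2 level of the 10 spermatid markers and log2 levels of Bcl2l14, Bax, Bok and Mcl1 (vertical axes, each on its own scale) on the 5 wildtype (blue) and 3 mutant (red) arrays. The genes were chosen after their values were seen. On wildtype replicate 7 and mutant replicate 8 the spermatid mean and Bcl2l14 are highest and Bax, Bok and Mcl1 are lowest. Of the 6 Mcl1 probe sets this held only for the 1 shown, the main one.

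On their main probe sets Bax, Bok and Mcl1 differed more between wildtype replicate 7 with mutant replicate 8 and the other 6 arrays than between genotypes. On both wildtype replicate 7 and mutant replicate 8, 6 of the 35 probe sets (17.1%) lay outside the range of the other 6 arrays on the same side, 5 below and 1 above. Over all probe sets this share was 18.9%, with 10.3% below and 8.60% above, so the members were not set apart by it. Those below were the main probe sets of Bax, Bok and Mcl1 and 2 of Bcl2. The mean of these 2 arrays minus the mean of the other 6 was -0.38 for Bax, -0.24 for Bok and -0.19 for Mcl1 on the log2 scale. Of the 6 Mcl1 probe sets only 1, the main one, lay below on both arrays. The rest of them had -0.18 to -0.01 for the same difference. A weakly measured probe set of Bcl2l11 (1426334_a_at) was the one above, at 6.01 and 6.08 against 5.59 to 5.90. Bcl2l14, a BCL-2 relative outside the members, had 9.61 on both arrays against 8.25 to 8.96 on the others.

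The pathway around the members was read from a list of other cell death genes grouped by role, of which 60 were measured by 130 probe sets. With 1 main probe set per gene, 0 of 60 passed the adjusted threshold, 1 was higher and 2 were lower at an unadjusted p under 0.05 (5.00%, against 3.47% of all probe sets), and the median difference was 0.017. Over all 130 probe sets 1 was higher and 4 were lower (3.85%). Neither share stood out against the background.

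**Figure D4:**
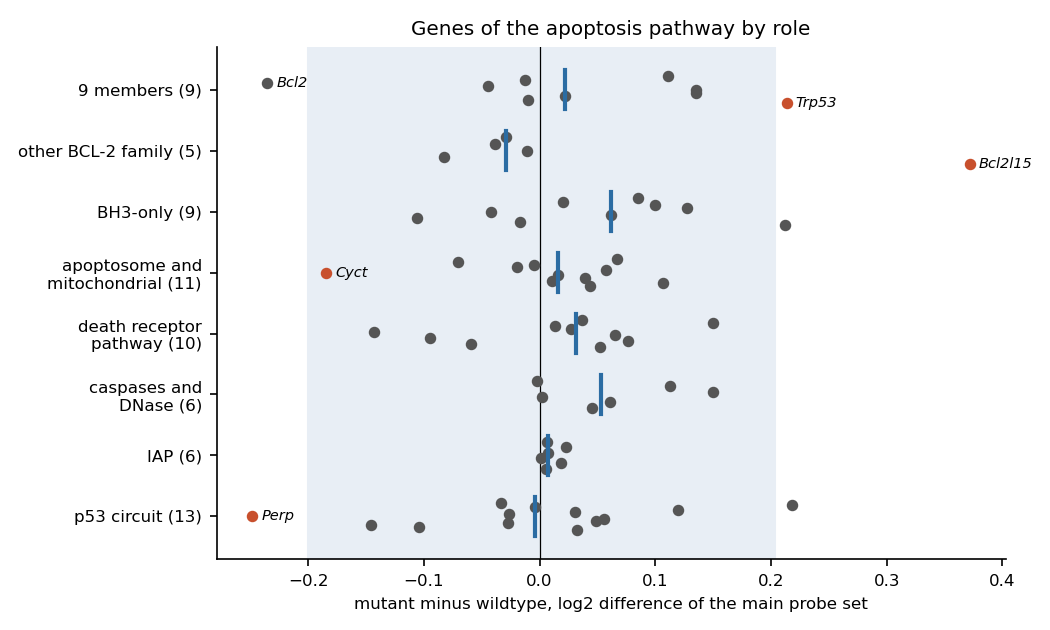
Difference in log2 level of the main probe set, mutant minus wildtype (horizontal axis), for the 9 members and 60 other genes of the pathway in 7 role groups, with the number of genes in brackets. Blue lines are group medians, red points have an unadjusted limma p under 0.05, and the band holds the central 95% of all probe sets. Group medians lie between -0.03 and 0.06.

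At the mitochondrion, Cyct, the cytochrome c of male germ cells, was the pathway gene with the lowest p. It had 11.66, 11.71, 11.64, 11.57 and 11.73 in the wildtype and 11.48, 11.41 and 11.54 in the mutant arrays. All mutant values were below all wildtype values, with a difference of -0.18 (SE 0.07). The exact two-sided permutation p was 0.0357, the unadjusted limma p was 0.0199 and the adjusted p was 0.99996. Cyct was named by a rule that asked for an unadjusted limma p under 0.05 and no overlap. The separation and the unadjusted p-values are therefore no further support. Of the 60 main probe sets 1 had separate ranges (1.67%), against 2.70% of all probe sets. The spermatocyte list had mean levels of 11.57 to 11.71 in wildtype and 11.43 to 11.58 in mutant testis, and its part in the Cyct difference was not tested. Of the 11 genes of the apoptosome, released factors and membrane channels, Cyct was the only one past an unadjusted p of 0.05, and the median was 0.016. Diablo, which relieves caspase inhibition, differed by 0.02 (SE 0.06), or 0.0081 in the 6 arrays, and Vdac2, a channel protein that binds BAK, by 0.04 (SE 0.06). Both SE were among the smallest of the 60 genes.

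The remaining BCL-2 relatives were measured in 5 genes, with 0 past the adjusted threshold and a median of -0.03. Bcl2l15 differed by 0.37 (SE 0.15) at an unadjusted limma p of 0.032, on overlapping values and a level below the median, and is named after its value was seen. Without wildtype replicate 7 and mutant replicate 8 it was 0.22, and between those 2 arrays alone 0.61. Bcl2l12 differed by -0.04 (SE 0.06) and Bcl2l14 by -0.08 (SE 0.29), which became -0.28 in the 6 arrays. The large error of Bcl2l14 came with the spread between arrays given above.

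Of the 9 other BH3-only genes and their relatives, 6 differences were above 0 and 3 below, none at an unadjusted p under 0.05, with a median of 0.06. Bad, whose protein is silenced by phosphorylation, differed by 0.08 (SE 0.10) over the 8 arrays and by -0.02 in the 6. Bnip3l, which encodes a mitophagy receptor, differed by -0.11 (SE 0.08).

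Death receptors and their adaptors gave 10 genes with a median of 0.03 and 0 past an unadjusted p of 0.05 on the main probe sets. Tnfrsf1a, the main TNF receptor, differed by 0.08 (SE 0.11) and the kinase Ripk1 by 0.07 (SE 0.07), and in the 6 arrays each by 0.13. A second probe set of Cflar, the inhibitor of caspase 8, had -0.20 (SE 0.08) without overlap, at 4.76 to 5.10 and so below the median level. Its main one had 0.15 (SE 0.11), or 0.24 in the 6 arrays, and the remaining ones had 0.09 and 0.04. The gene is left without a direction. Among the caspases and the caspase-activated DNase with its inhibitor, 6 genes had a median of 0.05 and 0 past an unadjusted p of 0.05. Casp6 differed by 0.15 (SE 0.07) and Casp2 by -0.0018 (SE 0.08), and in the 6 arrays by 0.24 and -0.01. Cflar is named after its values were seen.

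Among the inhibitors of apoptosis all 6 main probe sets lay between 0.00096 and 0.02 on the log2 scale over the 8 arrays, with a median of 0.0070. This narrow range did not hold without wildtype replicate 7 and mutant replicate 8, where Xiap had 0.19, Birc6 0.11 and Xaf1 -0.10, while between those 2 arrays the values were -0.36, -0.24 and 0.44. Birc2, which tags caspase pathway proteins with ubiquitin, and Birc5, the survivin gene, differed by 0.0068 (SE 0.06) and 0.0072 (SE 0.06), and in the 6 arrays by -0.02 and 0.05. Xaf1, an antagonist of XIAP, had 0.02 with a wider SE of 0.18.

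The size of change that these arrays leave room for was read from the intervals of the main probe sets of the 9 members. As a set they ran from 0.717-fold, the lower end for Bcl2, to 1.30-fold, the upper end for Bcl2l11. A larger change of whole-testis transcript level lay outside the 95% interval of every main probe set, each taken singly and without adjustment. Intervals of other probe sets reached higher, to 1.35-fold for the well measured 1426538_a_at of Trp53 and 1.41-fold for the low 1425716_s_at of Bak1. All of these intervals are from the fit of the 8 arrays on genotype alone, and intervals of the alternatives were not read. The estimates moved between fits. Bcl2l11 went from 0.14 to 0.28 on the log2 scale without wildtype replicate 7 and mutant replicate 8. Bcl2 went from -0.24 to -0.34 without mutant replicate 3. The number of arrays limits the precision.

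The genes whose levels ran most alike to a member over the 8 arrays were looked up among 18418 to 18424 probe sets of a single gene above the array median. For Trp53 these were Cited2 (Pearson r 0.98, and 0.99 over the 6 arrays without wildtype replicate 7 and mutant replicate 8) and Sertad3 (0.96 and 0.99). For Bax they were Fkbp2 (0.995 and 0.97) and Ccdc77 (0.99 and 0.87), and for Bok 1700029P11Rik (0.98 and 0.99) and 3110021A11Rik (0.98 and 0.88). Mcl1 had Mef2a (0.98 and 0.97) and Papolg (0.98 over both), and Bcl2l11 had Adipor1 (0.98 over both) and Mllt6 (0.97 and 0.99). Bcl2l1 had Rpp21 and Oxld1 (both 0.97 over 8 arrays), Bcl2l2 had Prelid1 (0.97) and Smim1 (0.96), Bcl2 had 4432414F05Rik and Ccdc167 (both 0.95), and Bak1 had Macroh2a3 (0.96) and 1700063H04Rik (0.94). The coefficients were the highest of many candidates over 8 arrays, carry no p and describe these arrays only.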

How the data were processed

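Testis RNA of 8 samples was measured on Affymetrix Mouse430_2 arrays. According to the study's methods and the labels, the authors corrected background and summarised probes by RMA with quantile normalisation and deposited log2 levels for each probe set on each array, without a stated software version. Means, folds and p-values in the same table and 2 further tables hold the authors' own comparisons and were not used. Samples were grouped by the titles.

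The deposited log2 levels were used without a filter. Using limma 3.58.1 in R 4.3.3 (lmFit, then eBayes), all 45101 probe sets were fitted on genotype alone, two-sided, with Benjamini-Hochberg adjustment over all of them, and the fit was tested on simulated data. Single values were also tested by exact two-sided permutation of the arrays, with the one-sided p doubled (Python 3.11.15, scipy 1.17.1). The main probe set of a gene carries no _s_at or _x_at suffix where one exists and then has the highest mean level.

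Named genes were all members, the 2 pathway genes of each role group with the highest mean level, and up to 3 pathway genes per direction with an unadjusted p under 0.05 and no overlap. Names came from Entrez IDs through a RefSeq table (GRCm38.p6), which matched 91.1% of the probe sets with 1 ID. Bcl2a1a, Bcl2a1b, Bcl2a1d and Sesn1 share probe sets with other genes and were not read. Some single values of the pathway list are not reported here. The array annotation names no genome build, so no coordinates are given. The members and lists were chosen with earlier results of these data known. Alternatives were leaving out each array, a level filter, centring, repeated quantile normalisation, a trend with a robust prior, array weights, wildtype replicate 7 and mutant replicate 8 as a block, an offset of 64 on the linear scale, no control probe sets and other probe sets of a gene. Leaving out both arrays of that block was added after the data were seen.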

Additional observations from a re-analysis of the deposited data

Results flagged for a closer look

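Each of 50 probe sets, from the members and the named pathway genes, was searched in the 5 wildtype samples for 1 value lying far outside the rest. Such values were found for 2 of them, and chance alone gives about 1 in 20. A weakly measured probe set of Bcl2l2 (1451029_at) had a log2 level of 6.18 in wildtype replicate 2, and the next highest wildtype value was 5.58. Mdm2 had 10.99 in wildtype replicate 1, and the next lowest was 11.03, within a range of only 0.06 over the group. Groups of 3 were not searched.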

How the results depend on the processing

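No paired analysis was possible because the labels name no pairs or litters, and the replicate numbers run on across both groups. The study calls the animals littermates, so litter may matter and could not be taken into account. The count of 0 member probe sets past an adjusted p of 0.05 held under all alternatives run, leaving out each array included, and the lowest adjusted p of any member or named gene was 0.751. The count of 1 of 35 at an unadjusted p under 0.05 stood against 3.47% of all probe sets, and brackets give that share for each alternative. It became 2 with centred arrays (3.48%), array weights (4.89%), the block (5.86%) or both arrays of the block left out (6.55%). With repeated quantile normalisation it became 3 (3.92%). Leaving out 1 array gave 1 to 3. The count was 2 without wildtype replicate 1 (3.16%), 2 (2.78%) or 4 (2.95%) or mutant replicate 3 (4.12%) or 8 (5.87%). It was 3 without wildtype replicate 7 (3.59%), and 1 without wildtype replicate 6 (3.12%) or mutant replicate 5 (2.71%). The main Trp53 probe set was among the member probe sets past the threshold each time.

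On the log2 scale Trp53 ranged from 0.17 with the offset to 0.24 without wildtype replicate 1, always above 0 on its main probe set, but 3 weak probe sets reversed to -0.0665, -0.0123 and -0.0151. Bcl2 reversed on other probe sets to 0.10, 0.0394 and 0.00032, Bcl2l1 to 0.0557 and Bcl2l11 to -0.0342. Without both arrays of the block Mcl1 reversed to 0.0647, with array weights to 0.0234 and with the block to 0.016, Bax to 0.039 with the block and 0.0195 without both arrays, Bad to -0.0216 and Birc2 to -0.0242 without both arrays, Birc2 to -0.0012 with array weights and Casp2 to 0.0074 with the block. The cause was not tested. Leaving out 1 array, the differences ranged from -0.14 to 0.0422 for Bcl2l1, -0.0827 to 0.0877 for Mcl1, -0.11 to 0.10 for Bax, -0.0413 to 0.0751 for Bok, -0.44 to 0.24 for Bcl2l14, -0.00058 to 0.14 for Ripk1, -0.0418 to 0.0362 for Casp2, -0.0181 to 0.0431 for Birc2 and -0.0254 to 0.0548 for Birc5. Without a change of sign, Bcl2l11 ranged from 0.05 to 0.27, Bcl2 from -0.34 to -0.18, Bcl2l2 from 0.10 to 0.20, Bak1 from 0.05 to 0.17, Tnfrsf1a from 0.0014 to 0.19, Bnip3l from -0.14 to -0.05, Casp6 from 0.09 to 0.23, Bad from 0.03 to 0.12, Bcl2l12 from -0.06 to -0.01, Diablo from 0.00015 to 0.03, Vdac2 from 0.03 to 0.06, Mdm2 from 0.0043 to 0.06, Ppp1r13b from 0.02 to 0.10 and Cyct from -0.22 to -0.15. With the offset Bcl2 was -0.12 and Bak1 0.06.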
